A study of Homo sapiens with 64 samples.

Results

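The genes described here are 39 genes of the lysosome and of autophagy, chosen by name from the 54127 genes listed in the RNA sequencing counts, and all 39 were found. They comprise 14 lysosomal hydrolases and their activators, 5 proteins of the lysosomal membrane and of cholesterol export, 6 subunits of the vacuolar proton pump, 3 transcription factors, 5 proteins of the autophagosome and 6 proteins of autophagy initiation. The counts came from 64 samples of human colorectal cancer cell lines that were grown as nonadherent spheroids with bFGF and EGF. For 48 of these samples, cells of 6 lines (HT55, SW948, RKO, SW48, DLD1 and HCT15) were stained with CFSE, a dye that is diluted at each cell division, cultured for 6 d and sorted by FACS into label-retaining cells (LRCs), which kept the dye, and non-LRCs, the cycling bulk population, with 4 replicates per line and population. The other 16 samples were controls labelled as DLD1 that were not separated into LRCs and non-LRCs. These had been treated with CFSE or, as unlabeled controls, with DMSO (called without dye below) and taken 1 d or 6 d after seeding, 4 replicates each, to show effects of the dye and of time in culture; the sample labels call the later time day 5 where the design text says day 6, and it is called day 6 here. Each line is a single established cell line, so its replicates do not stand for different tumors.

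Lysosomes are acidic compartments in which hydrolases such as the cathepsins break down proteins, lipids, glycogen and other sugars. The vacuolar proton pump acidifies them, and membrane proteins such as LAMP1, NPC1 and the calcium channel MCOLN1 protect the membrane and export products. In autophagy, ULK1 and BECN1 start a membrane that encloses cytoplasm, proteins of the LC3 and GABARAP family become attached to it, SQSTM1 brings in cargo, and the closed vesicle fuses with the lysosome. TFEB, TFE3 and MITF are related transcription factors that bind the CLEAR motif, an extended E box, near many lysosomal genes, and their entry to the nucleus is controlled by nutrient signaling through mTORC1.

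Because these factors read a short DNA motif, the promoters of the 39 genes were searched for it. RefSeq promoter windows on GRCh38.p14, from 250 bases before to 50 bases after the start of a gene, were at hand for 29 of the 39 genes, and not for ASAH1, ATP6V1A, ATP6V1B2, ATP6V1C1, ATP6V1H, CTSB, CTSS, HEXA, LAMP2 and PSAP. The E box CACGTG was present on either strand in 6 of these 29 windows (20.7%) and in 7.26% of all 35116 windows. With a preceding T, as TCACGTG, it was present in the same 6 (20.7%) against 3.71%, and the palindrome TCACGTGA, which contains both shorter motifs, in 5 (17.2%) against 0.98%. The 6 genes were ATP6V0D1, CTSA, CTSD, GAA, LAMP1 and MCOLN1, and CTSD lacked the palindrome. The stretches around the motif are shown for 3 genes whose counts are described below, with the motif TCACGTG, on either strand and with the last A of the palindrome where present, in capitals. MCOLN1 (chr19:7522542-7522623, + strand) and GAA (chr17:80101464-80101580, + strand) each had the palindrome in 2 places, and CTSD (chr11:1763928-1764014, - strand) had the motif on the opposite strand, where it reads CACGTGA.
MCOLN1: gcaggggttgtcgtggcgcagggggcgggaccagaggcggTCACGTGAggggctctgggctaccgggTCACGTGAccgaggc
GAA: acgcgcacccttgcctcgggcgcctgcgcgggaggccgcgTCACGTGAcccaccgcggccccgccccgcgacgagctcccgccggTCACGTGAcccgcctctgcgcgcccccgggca
CTSD: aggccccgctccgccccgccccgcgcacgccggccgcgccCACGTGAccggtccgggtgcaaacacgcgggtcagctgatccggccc
Of the 11 genes with a window that rose in LRCs across the lines, 1 held the motif (MCOLN1), and of the 18 that did not, 5 did. These are matches of letters within a window, not measured binding.

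Sequencing gave 12237225 to 20913455 reads on genes per sample (median 15063858), so that a gene with few counts carries a large counting error. Expression is given as counts per 1000000 reads on genes (CPM) after TMM scaling, and no 2 samples held identical counts. Of the epithelial markers, KRT8 and KRT18 were at 75.4 CPM or more in every sorted group. EPCAM, CDH1 and KRT19 were at 328 CPM or more outside RKO, which had 18.2 and 16.3 CPM of EPCAM in LRCs and non-LRCs and 1.24 CPM or less of CDH1 and KRT19. The intestinal markers KRT20, VIL1 and LGALS4 were at 3.45 CPM or less in RKO and SW48, and KRT20 and LGALS4 at 3.04 to 4.33 CPM in HCT15. Some libraries went against their labels. All 16 controls labelled DLD1 correlated better with sorted HCT15 non-LRCs (r from 0.934 to 0.993 over 14602 genes) than with sorted DLD1 non-LRCs (0.903 to 0.954), and of 348 genes that differed by over 2 on the log2(CPM + 1) scale between those sorted lines, 291 to 346 were closer to HCT15 in the 4 control groups. The controls are therefore called the controls labelled DLD1 and are not compared with the sorted samples. The library labelled unlabeled day 1 replicate 4 correlated better with an unlabeled day 6 library (r = 0.996) than with its own group (0.968 to 0.976), and CFSE day 1 replicates 1 and 2 stood apart from replicates 3 and 4. Among the sorted samples, HT55 non-LRC replicate 2 was closest to HT55 LRC replicate 2 (0.997), SW948 LRC replicate 4 to SW948 non-LRC replicate 3 (0.998) and SW48 non-LRC replicate 2 to SW48 LRC replicate 2 (0.992). In HT55 and SW48 this held both ways. There LRC replicate 2 was also closer to non-LRC replicate 2 than to its own group (at most 0.991 and 0.99). Counts of genes called are given with and without these libraries, as are the values of some genes but not of all.

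The 39 genes covered a wide range of levels. Per length, as CPM per kilobase of exon (RPKM, mean of the 8 sorted samples of a line, then over the 6 lines), PSAP, the precursor of the saposins that activate sphingolipid hydrolases, was highest at 324 RPKM, followed by the LC3 relative GABARAP at 91.6, the cargo receptor SQSTM1 at 69.2 and the aspartic protease CTSD at 65.8 RPKM. The lowest were the factor MITF at 0.917 RPKM, the cysteine protease CTSS at 1.73 and TFEB at 1.85 RPKM, whereas TFE3 was at 15.3 RPKM. PSAP varied little between lines, from 265 RPKM in RKO to 415 in HCT15. By contrast, the carboxypeptidase CTSZ was at 95.1 RPKM in HT55 and 2.1 in DLD1, and CTSS at 9.14 RPKM in HT55 and 0.026 in SW48. CTSL, a cysteine protease, was at 36 RPKM in RKO and had no count in 4 of the 8 SW48 libraries. GABARAPL1, another LC3 relative, ranged from 3.12 RPKM in RKO to 30.2 in DLD1, TFEB from 0.452 in DLD1 to 5.31 in HT55, and MITF from 0.179 in SW948 to 2.58 in DLD1. On GRCh37, PSAP lies at chr10:73576055-73611008, GABARAPL1 at chr12:10365057-10375727, MAP1LC3B at chr16:87417559-87438385 and TFEB at chr6:41651716-41703997, each position being that of the whole gene. The plot of levels per length shows that lines differed more in these few genes than in most of the others.

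**Figure D1:**
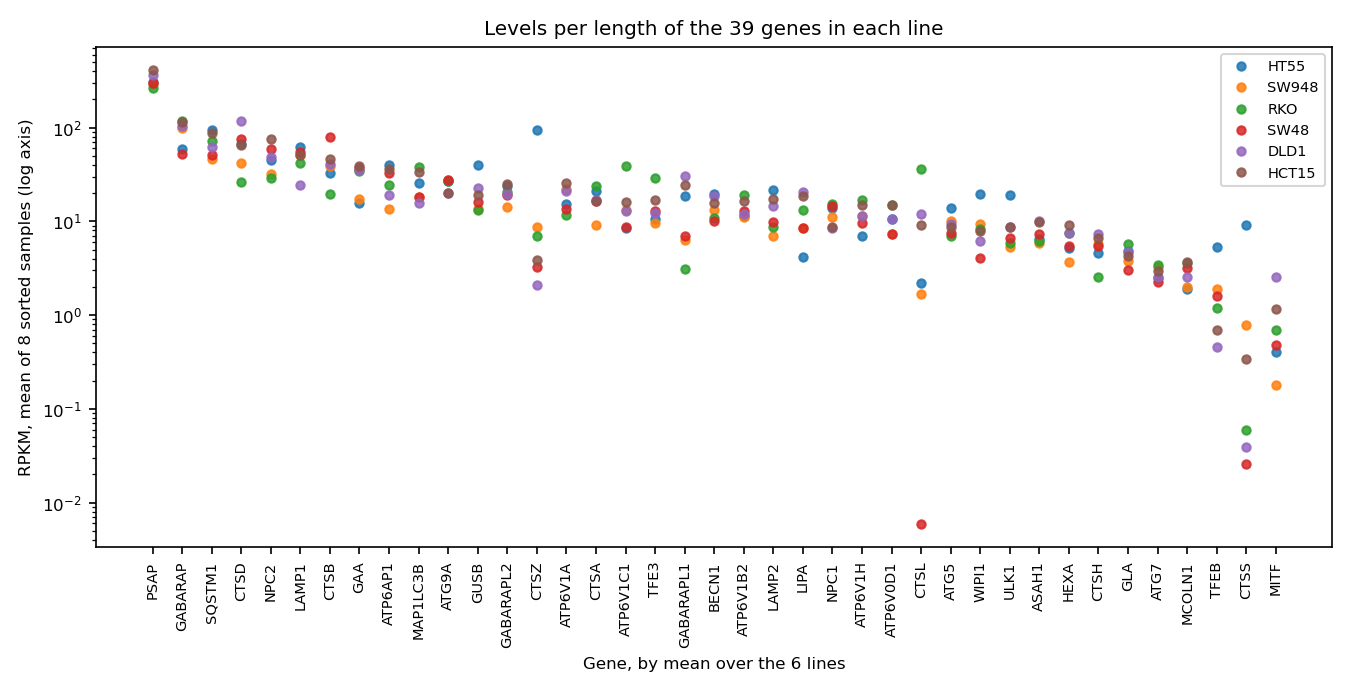
Levels of the 39 genes in each of the 6 sorted lines, in RPKM on a log axis (each point is the mean of the 8 sorted samples of a line), ordered by their mean over the lines. PSAP is highest in every line, and CTSZ, CTSL, CTSS, TFEB and MITF spread most between lines.

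LRCs, the cells that the study calls dormant, were compared with non-LRCs, its cycling cells. Across the 6 lines, 16 of the 39 genes rose in LRCs and none fell. They were the hydrolases and activators PSAP, CTSB, CTSS and ASAH1, the membrane and cholesterol proteins LAMP2, NPC1, NPC2 and MCOLN1, the pump subunit ATP6AP1, the factor TFEB, the autophagosome proteins SQSTM1, MAP1LC3B, GABARAP and GABARAPL1, and the initiation proteins ULK1 and BECN1. The changes were small, from 0.09 to 0.43 on the log2 scale. Genes were called at an adjusted p below 0.05 in edgeR's quasi-likelihood test with line as a covariate. As a share, 41% of the 39 genes were higher, where 12.2% of all 16603 genes tested were higher and 10.7% were lower. The median log2 fold change of the 39 was 0.11, and 35 lay above 0, beside a median of 0.01 over all genes. HT55 and SW48 non-LRC replicate 2 and SW948 LRC replicate 4 were each closest to a library of the opposite population. Leaving out these 3, 19 rose (all genes 13.6% higher and 11.7% lower), and leaving out replicate 3 of every line, 9 did (all genes called 13.7%). PSAP, CTSB, NPC2, ATP6AP1, MAP1LC3B and GABARAPL1 kept their call when any replicate or line was left out, and each of the other genes lost it at least once. As these are bulk samples, a higher share of cells of a given kind and more RNA per cell cannot be told apart. The study's methods call the 4 replicates biological, and p-values measure the spread between these samples.

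**Figure D2:**
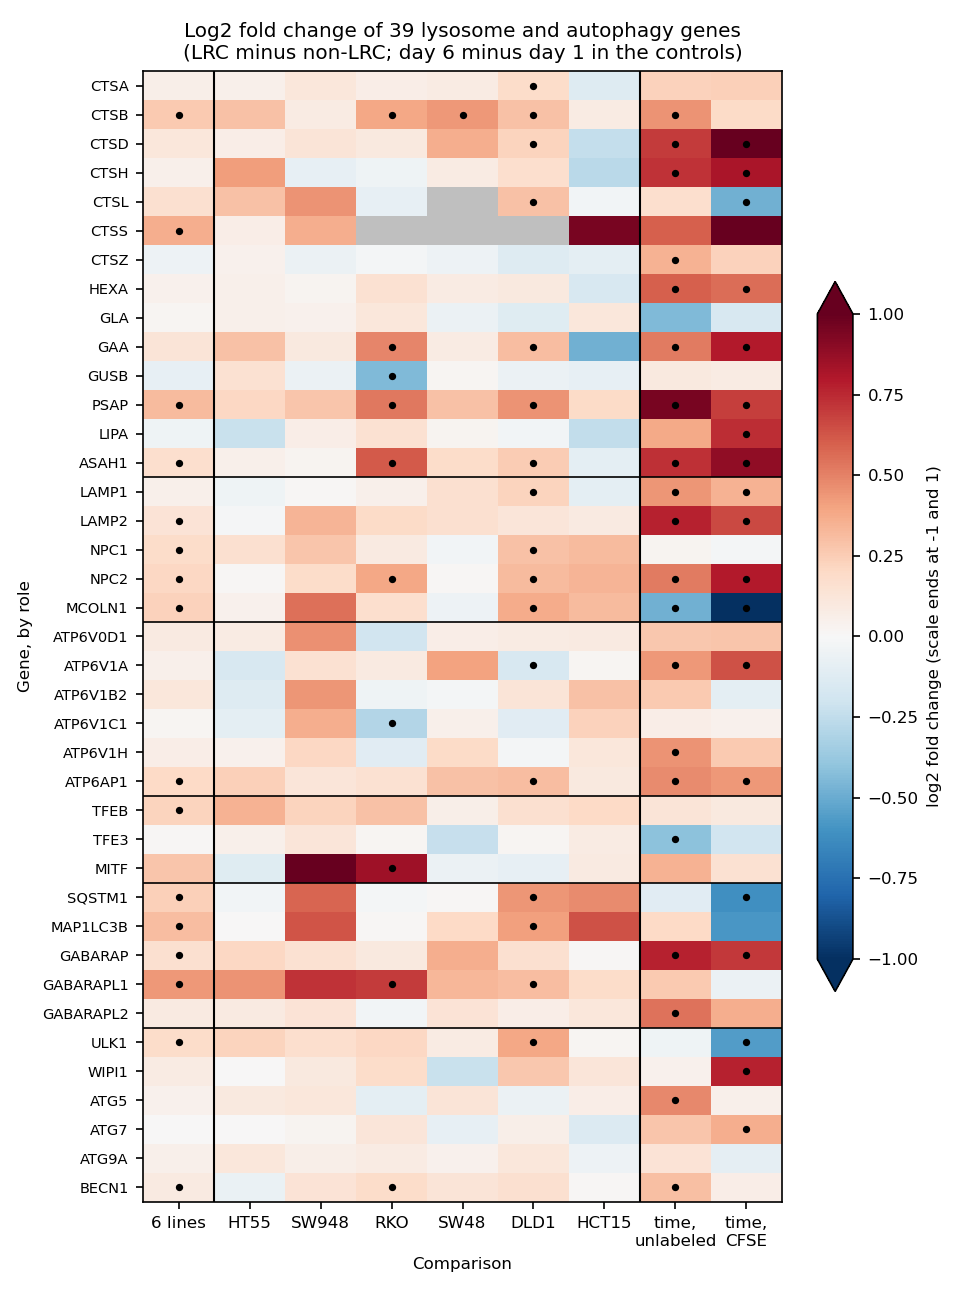
Log2 fold changes of the 39 genes, grouped by role from hydrolases (top) to initiation proteins (bottom), for LRCs against non-LRCs across and within the 6 lines and for day 6 against day 1 in the controls labelled DLD1. Red is higher and blue lower, the color scale ends at -1 and 1, black points mark genes called at an adjusted p below 0.05 and grey cells were not tested; the left column holds 16 points, all on red cells.

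By role, 4 of 14 hydrolases and activators were higher, 4 of 5 membrane and cholesterol proteins, 1 of 6 pump subunits, 1 of 3 factors, 4 of 5 autophagosome proteins and 2 of 6 initiation proteins in LRCs. The 23 genes not called had log2 fold changes of -0.08 (GUSB, a glucuronidase) to 0.28 (MITF). Beyond the 39, a list of 131 tested genes of the same compartments had 52 higher and 7 lower, beside the 12.2% and 10.7% of all genes. The highest there by p were the sialidase NEU1 (124 ± 65.7 against 91.1 ± 45.2 CPM, log2 fold change 0.46 (SE 0.05, adjusted p = 8.16e-09)), the iduronate sulfatase IDS (129 ± 55.5 against 92.9 ± 38.7 CPM, log2 fold change 0.47 (SE 0.06, adjusted p = 1.22e-07)) and ZFYVE1, which marks the site where autophagosomes form (36.8 ± 10.9 against 28.4 ± 7.76 CPM, log2 fold change 0.37 (SE 0.05, adjusted p = 1.6e-07)). The lowest by p were the dipeptidyl peptidase CTSC (59.2 ± 49.8 against 67.8 ± 56.2 CPM, log2 fold change -0.21 (SE 0.05, adjusted p = 0.000857)), NAGPA, which uncovers the mannose tag of hydrolases (16.2 ± 5.48 against 18.1 ± 6.48 CPM, log2 fold change -0.16 (SE 0.04, adjusted p = 0.00696)), and MAP1LC3C, a relative of LC3 (125 ± 285 against 192 ± 438 CPM, log2 fold change -0.52 (SE 0.15, adjusted p = 0.00699)). The SDs of these means contain the differences between lines.

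PSAP, the most abundant of the 39 genes, had the smallest p, with a log2 fold change of 0.32 (SE 0.04, adjusted p = 3.72e-07) and higher counts in LRCs in 22 of 24 same-numbered pairs. Equal numbers did not match samples in RKO or in all of SW948, so the pair counts here and below are a description. In DLD1, the 4 LRC samples were at 1342, 1256, 1330 and 1325 CPM and the 4 non-LRC samples at 976, 961, 925 and 1024 CPM. In RKO, LRCs were at 1164, 949, 869 and 956 CPM and non-LRCs at 645, 662, 647 and 720 CPM. In both lines every LRC sample lay above every non-LRC sample, and the log2 fold changes were 0.45 (SE 0.05, adjusted p = 0.00122) in DLD1 and 0.53 (SE 0.09, adjusted p = 0.000219) in RKO. In SW948, LRCs were at 1247, 970, 952 and 809 CPM and non-LRCs at 852, 801, 823 and 806 CPM. Here LRC replicate 4, which resembled non-LRCs over all genes, was the lowest LRC sample and lay within the non-LRC range. HT55 had 1017 ± 91.5 CPM in LRCs and 879 ± 47.6 in non-LRCs (mean ± SD, n = 4), SW48 1035 ± 139 and 843 ± 61.4, and HCT15 1374 ± 110 and 1212 ± 112. In these 3 lines the means were higher in LRCs and the samples overlapped.

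CTSB, a cysteine protease, was higher across the lines by 0.26 (SE 0.04, adjusted p = 1.4e-05), in 21 of 24 pairs. Its level was highest in SW48, with 924, 910, 1010 and 998 CPM in LRCs and 755, 678, 707 and 709 CPM in non-LRCs. The groups did not overlap, and the log2 fold change was 0.43 (SE 0.08, adjusted p = 0.0454). RKO LRCs were at 272, 225, 219 and 227 CPM and non-LRCs at 170, 168, 187 and 184 CPM, again without overlap, with replicate 1 of the LRCs the highest. The log2 fold change was 0.39 (SE 0.08, adjusted p = 0.00115) in RKO and 0.29 (SE 0.07, adjusted p = 0.0164) in DLD1, where LRCs had 477 ± 37.2 and non-LRCs 394 ± 22.2 CPM. In HT55 the means were 385 ± 21 and 314 ± 65.6 CPM, with non-LRC replicate 2 at 409 CPM above all 4 LRC samples. SW948 had 418 ± 44.7 and 396 ± 8.28 CPM and HCT15 504 ± 59 and 480 ± 31.6 CPM, differences smaller than the spread between replicates.

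CTSS was called across the lines at 0.36 (SE 0.10, adjusted p = 0.00478), and the call was lost without HCT15 and kept without any other line. Its counts were too low to be tested in RKO, SW48 and DLD1 (RKO LRCs had the highest mean there, 0.531 ± 0.122 CPM). In HCT15, LRCs had 3.44, 3.78, 2.86 and 2.4 CPM and non-LRCs 1.74, 1.29, 1.9 and 1.57 CPM, with no overlap and a log2 fold change of 0.95 (SE 0.21, adjusted p = 0.0676). HT55, where the gene was highest, had 64.5 ± 4.95 CPM in LRCs and 61.4 ± 4.2 in non-LRCs, and SW948 had 6.05 ± 1.27 and 4.71 ± 0.835 CPM; both overlapped. Of 7 leukocyte markers, CSF1R was higher in HCT15 LRCs, at 1.41 against 0.124 CPM, as was ITGAM at 0.18 against 0.0616 CPM. CD14 was at 6.36 against 7.32 CPM, PTPRC at 0.029 against 0 CPM, and CD3E had no count in any library. The summed level of the 7, mostly CD14, was 8.3 to 11.1 CPM in LRCs and 7.99 to 10.3 CPM in non-LRCs, and the part of these markers in the CTSS values was not tested. ASAH1, the acid ceramidase, was higher by 0.17 (SE 0.05, adjusted p = 0.0117) across the lines but mainly in RKO and DLD1, and it lost its call without RKO, without DLD1 and without replicate 3. RKO LRCs had 128, 111, 101 and 124 CPM against 71.8, 74.3, 76.1 and 75.6 CPM, a separation of 0.61 (SE 0.08, adjusted p = 2.13e-05), and the DLD1 change was 0.25 (SE 0.07, adjusted p = 0.0329). In HCT15 the change was -0.10 (adjusted p = 0.677), and in HT55 and SW948 it was 0.05 and 0.03.

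Among the membrane and cholesterol proteins, NPC2, which takes cholesterol from lipoproteins to NPC1 inside the lysosome, was higher by 0.21 (SE 0.05, adjusted p = 0.00139). DLD1 LRCs had 148, 139, 135 and 129 CPM and non-LRCs 123, 117, 102 and 104 CPM. RKO LRCs had 88.8, 86.2, 78.6 and 90 CPM and non-LRCs 55.9, 55.1, 68.5 and 78.5 CPM. In both lines the lowest LRC sample was above the highest non-LRC sample, in RKO by a small margin. HCT15 had 220 ± 32 and 174 ± 21.3 CPM and SW948 88.4 ± 19 and 78.2 ± 1.81 CPM, with overlap. In HT55 (116 ± 9.19 and 116 ± 12.3 CPM) and SW48 (152 ± 6.92 and 151 ± 7.49 CPM) the means lay within the spread of the replicates.

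MCOLN1, the calcium channel whose promoter is printed above, was a low gene and rose by 0.23 (SE 0.06, adjusted p = 0.00262), in 20 of 24 pairs. The call was lost without replicate 3. In DLD1, LRCs were at 11.6, 11.5, 11.4 and 11 CPM and non-LRCs at 8.11, 9.28, 8.63 and 9.34 CPM. In SW948, LRCs were at 10.1, 9.19, 11.6 and 6.44 CPM and non-LRCs at 6.03, 7.01, 6.05 and 6.56 CPM. The DLD1 groups were apart (0.37 (SE 0.09, adjusted p = 0.0201)), and in SW948 3 LRC samples lay above all non-LRC samples while LRC replicate 4 lay among them (0.55 (SE 0.17, adjusted p = 0.168)). HCT15 had 16.3 ± 2.08 and 13.2 ± 1.37 CPM, RKO 15.3 ± 1.34 and 13.3 ± 1.37, HT55 7.6 ± 0.912 and 7.39 ± 0.446 and SW48 12.3 ± 0.544 and 12.7 ± 2.39 CPM, all with overlap. The other genes of this group that rose were the membrane protein LAMP2 by 0.14 (adjusted p = 0.00709) and the cholesterol exporter NPC1 by 0.18 (adjusted p = 0.02), while LAMP1 was at 0.05 (adjusted p = 0.301).

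Of the 6 proton pump genes chosen here, the accessory subunit ATP6AP1 was the only one called across the lines. Its change was 0.20 (SE 0.04, adjusted p = 5.6e-05), with higher counts in LRCs in 21 of 24 pairs. DLD1 LRCs had 113, 115, 124 and 126 CPM and non-LRCs 96.2, 98.9, 94.9 and 100 CPM, without overlap (0.31 (SE 0.05, adjusted p = 0.00424)). HT55 had 244 ± 26.6 and 207 ± 9.59 CPM, SW48 205 ± 18.3 and 168 ± 14.9, RKO 146 ± 13.3 and 129 ± 4.15, SW948 79.2 ± 7.49 and 73.5 ± 5.45 and HCT15 210 ± 19.2 and 198 ± 21.9 CPM. All 6 means were higher in LRCs, but the samples overlapped outside DLD1. The 5 chosen subunits of the pump itself (ATP6V0D1, ATP6V1A, ATP6V1B2, ATP6V1C1 and ATP6V1H) were at 0.02 to 0.11 on the log2 scale, with adjusted p from 0.137 to 0.809. Of 12 further pump genes in the wider list, 7 were called higher across the lines and 0 lower (all genes 12.2% and 10.7%), with a median log2 fold change of 0.17. In DLD1, 6 of 12 were higher and 0 lower (all genes 6.67% and 7.89%), and in RKO 0 of 10 were higher and 1 lower (all genes 20.4% and 21%).

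Of the 3 factors, TFEB alone was called. It was higher in LRCs by 0.22 (SE 0.06, adjusted p = 0.00791), in 20 of 24 pairs and with a higher mean in all 6 lines. The call was lost without HT55, without replicate 1 and without replicate 3. It was highest in HT55, with 39.1, 36.6, 38.3 and 46 CPM in LRCs and 26.6, 36.2, 31.3 and 31.3 CPM in non-LRCs. RKO LRCs had 9.75, 9.41, 8.17 and 7.96 CPM and non-LRCs 6.6, 6.89, 7.1 and 7.68 CPM. Both lines showed no overlap between groups, yet TFEB was called within no single line (adjusted p = 0.571 in HT55 and 0.0744 in RKO). SW948 had 13.7 ± 1.82 and 11.8 ± 0.752 CPM, SW48 11 ± 2.15 and 10.5 ± 1.78, HCT15 4.96 ± 0.451 and 4.35 ± 0.495 and DLD1 3.19 ± 0.99 and 2.88 ± 0.665 CPM.

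TFE3 had a log2 fold change of 0.01 (SE 0.04, adjusted p = 0.908), with means between 42.5 ± 4.51 CPM in SW948 LRCs and 124 ± 4.35 CPM in RKO LRCs, and its largest difference in SW48 at -0.23 (SE 0.09, adjusted p = 0.303). MITF was not called across the lines (0.28 (SE 0.12, adjusted p = 0.0743)) and differed between them. In RKO it rose, with 6.44, 8.59, 6.27 and 5.58 CPM in LRCs against 3.41, 4.29, 3.79 and 3.25 CPM in non-LRCs (0.85 (SE 0.17, adjusted p = 0.00112)). In SW948 it was at 2.57, 2.22, 2.53 and 1.07 CPM in LRCs and 0.381, 0.678, 0.257 and 0.892 CPM in non-LRCs. Both lines were without overlap, but in SW948, where no non-LRC sample reached 1 CPM, it was not called (1.91 (SE 0.38, adjusted p = 0.133)). DLD1, where MITF was highest, had 18.5 ± 1.85 CPM in LRCs and 19.8 ± 1.89 in non-LRCs, HCT15 8.83 ± 0.464 and 8.36 ± 1.73, SW48 3.48 ± 0.685 and 3.6 ± 0.853, and HT55 2.88 ± 0.502 and 3.14 ± 0.343 CPM. None of these 4 differed by more than the replicates did.

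The autophagosome proteins included the largest change of the 39 genes across the lines, that of GABARAPL1 at 0.43 (SE 0.06, adjusted p = 4.25e-07), with higher counts in LRCs in 22 of 24 pairs. In RKO, LRCs were at 15.6, 17.9, 13.5 and 16 CPM and non-LRCs at 9.33, 10.1, 8.13 and 10.7 CPM. In DLD1, LRCs were at 137, 137, 132 and 133 CPM and non-LRCs at 113, 118, 104 and 104 CPM. The groups were apart in both lines, with log2 fold changes of 0.70 (SE 0.12, adjusted p = 0.000279) in RKO and 0.31 (SE 0.05, adjusted p = 0.0046) in DLD1. In HT55, LRCs were at 95.2, 82.3, 87.7 and 84.9 CPM and non-LRCs at 57.8, 82.8, 58.6 and 57.3 CPM. In SW948, LRCs were at 37, 33.3, 36.9 and 19.7 CPM and non-LRCs at 19.2, 17, 21.1 and 20.1 CPM. In each of these lines 1 sample crossed over, the HT55 non-LRC replicate 2 and the SW948 LRC replicate 4 that stood apart over all genes. SW48 had 31.9 ± 3.82 and 25.3 ± 3.04 CPM and HCT15 106 ± 9.41 and 93.8 ± 4.12 CPM, higher in LRCs with overlap.

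MAP1LC3B, the LC3 protein that is attached to the autophagosome membrane, was higher by 0.31 (SE 0.07, adjusted p = 0.000538) across the lines, but this came from some of them. In HCT15, LRCs were at 239, 259, 171 and 146 CPM and non-LRCs at 141, 146, 113 and 126 CPM. In SW948, LRCs were at 144, 114, 117 and 73.3 CPM and non-LRCs at 71, 68.2, 76.7 and 74.6 CPM. In DLD1, LRCs were at 95.6, 96.7, 87.8 and 81.5 CPM and non-LRCs at 73.3, 73.5, 63 and 64.3 CPM. LRCs were above non-LRCs in all 4 pairs of DLD1 and in 3 of 4 SW948 samples, and in HCT15 the lowest LRC sample only reached the highest non-LRC sample. The gene was called in DLD1 (0.41 (SE 0.07, adjusted p = 0.00536)) and not in HCT15 (0.64 (SE 0.17, adjusted p = 0.105)) or SW948 (0.63 (SE 0.15, adjusted p = 0.139)). HT55 had 130 ± 12.9 and 130 ± 14.7 CPM, RKO 193 ± 6.61 and 188 ± 13.7 and SW48 98.5 ± 13.7 and 85.6 ± 15.7 CPM, all within the spread of the replicates.

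SQSTM1, the receptor that carries ubiquitinated cargo and is itself degraded by autophagy, was called at 0.24 (SE 0.07, adjusted p = 0.00607) across the lines. The call was lost without SW948, without DLD1 and without replicate 3. DLD1 LRCs were at 532, 534, 552 and 530 CPM and non-LRCs at 413, 413, 379 and 387 CPM, far apart relative to their spread (0.44 (SE 0.05, adjusted p = 0.000748)). SW948 LRCs were at 504, 397, 486 and 268 CPM and non-LRCs at 283, 284, 273 and 278 CPM, with replicate 4 of the LRCs the lowest of all 8. HCT15 had 773 ± 131 and 562 ± 92.5 CPM, HT55 707 ± 57.2 and 725 ± 58.3, RKO 550 ± 33 and 546 ± 37.2 and SW48 385 ± 63.6 and 382 ± 92.3 CPM. GABARAP was called at 0.16 (adjusted p = 0.00738) and GABARAPL2 was not (0.09, adjusted p = 0.0572). Among the initiation proteins, the kinase ULK1 rose by 0.18 (adjusted p = 0.00647) and BECN1, part of the lipid kinase complex of autophagy, by 0.09 (adjusted p = 0.0294), while WIPI1, ATG5, ATG7 and ATG9A were at 0.08 or less with adjusted p of 0.223 or more. Reads of MAP1LC3B, GABARAPL1 and CTSL may be shared with near-identical gene copies.

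**Figure D3:**
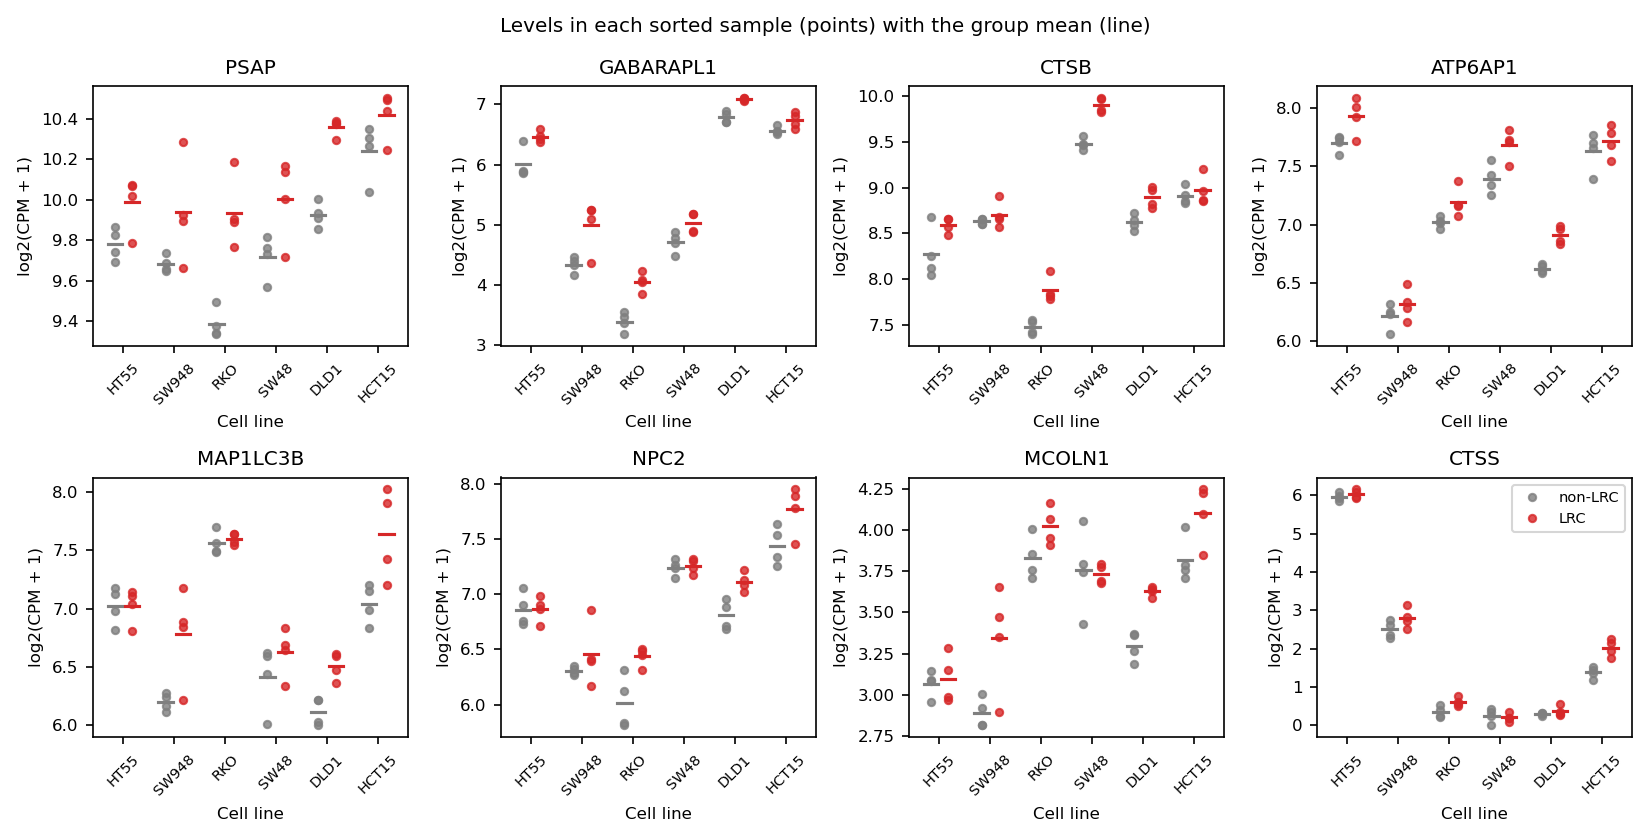
Levels of the 8 genes with the smallest p across the lines, as log2(CPM + 1) in each of the 48 sorted samples (points) with the mean of the 4 samples of a group (line), non-LRCs in grey and LRCs in red. PSAP and GABARAPL1 have higher LRC means in all 6 lines, whereas the MAP1LC3B means are level in HT55 and RKO.

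The lines were also tested one by one, each with its 8 samples. DLD1 had the most calls, with 16 of 38 tested genes higher (42.1%) and 1 lower, where 6.67% of all genes were higher and 7.89% lower. The gene that fell was ATP6V1A, the catalytic subunit of the pump, at -0.16 (SE 0.04, adjusted p = 0.0288). By role, 7 of 13 hydrolases and activators were higher, among them CTSD (0.22), CTSA (0.18), CTSL (0.29) and the glucosidase GAA (0.31), along with 4 of 5 membrane and cholesterol proteins, 3 of 5 autophagosome proteins and ULK1 (0.39). The count fell to 6 without replicate 1 (all genes 4.35%), 8 without replicate 3 (all genes 4.82%) and 6 without replicate 4 (all genes 5.63%). When all 48 samples shared 1 estimate of the spread it was 2 of 39, beside 3.89% of all genes. Same-numbered DLD1 samples deviated alike from their group means (r from 0.333 to 0.589). So did unlike numbers within replicates 1 and 2 and within 3 and 4 (0.284 to 0.438), so the numbers need not be pairs. With the replicate as a block 22 genes were higher (57.9%, all genes 17.1%) and 1 lower (2.63%, all genes 16.6%). In DLD1 LRCs, 10 of 12 proliferation genes fell with a median log2 fold change of -0.55, and whether this bears on the lysosomal genes was not tested.

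RKO had 8 of 38 genes higher (21.1%) and 2 lower (5.26%), where 20.4% of all genes were higher and 21% lower, so that the share of higher genes was near that of all genes. Those higher were MITF, GABARAPL1, ASAH1, PSAP, GAA (0.49), CTSB, NPC2 and BECN1 (0.18). The 2 that fell were GUSB (-0.44 (SE 0.08, adjusted p = 0.000742)) and the pump subunit ATP6V1C1 (-0.29 (SE 0.07, adjusted p = 0.00334)). In RKO LRCs 10 of 12 proliferation genes were lower (median -0.65), and mitochondrial transcripts made up 7.01% to 10.4% of reads in LRCs and 4.47% to 6.57% in non-LRCs; their part in these values was not tested. In SW48, CTSB was the 1 gene called of 37, with 0.72% of all genes higher and 0.0758% lower. Same-numbered SW48 samples deviated alike from their group means. With the replicate as a block, 6 genes were higher (16.2%, all genes 5.36% higher and 4.33% lower): CTSB, PSAP (0.28 (SE 0.06, adjusted p = 0.0223)), ATP6V1A (0.41 (SE 0.07, adjusted p = 0.00683)), ATP6AP1, GABARAP and GABARAPL1. Without SW48 non-LRC replicate 2, and without the block, CTSB was no longer called and the count was 0 by edgeR (8 at an unadjusted p below 0.05, all genes 1.1% higher and 0.29% lower). Without replicate 2 of both populations it was 5 (all genes 3.84%), and without replicate 1, 3 or 4 it was 0 (by edgeR, 4 to 6 at an unadjusted p below 0.05, with 0% to 0.0465% of all genes called). Mitochondrial transcripts were at 13.8% to 14.2% in SW48 LRCs and 9.66% to 11.3% in non-LRCs, and their part in these values was not tested.

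In HCT15, HT55 and SW948 none of the 39 genes passed the test. In HCT15, edgeR called 0.728% of all genes higher and 0.25% lower. An unadjusted p below 0.05 was found for 10 of the 39, as for 2415 of all 14017 genes, and DESeq2 called 2 of the 39 and 3.79% of all genes. Same-numbered HCT15 samples deviated alike from their group means, but unlike numbers did too, so the numbers need not be pairs. LRC replicate 1 correlated at 0.679 with non-LRC replicate 2 and at 0.395 with non-LRC replicate 1. With the replicate number as a block, 9 genes were higher (23.1%, all genes 11.3%) and 4 lower (10.3%, all genes 10%). Those higher were MAP1LC3B (0.61 (SE 0.08, adjusted p = 5.95e-05)), SQSTM1 (0.47 (SE 0.07, adjusted p = 0.000303)), CTSS (0.94 (SE 0.21, adjusted p = 0.00447)), NPC1, NPC2, MCOLN1, ATP6V1B2, ATP6V1C1 and GABARAPL1. The 4 lower were all hydrolases, namely GAA (-0.50 (SE 0.08, adjusted p = 0.000414)), CTSH (-0.27 (SE 0.06, adjusted p = 0.00447)), CTSD (-0.25 (SE 0.08, adjusted p = 0.0467)) and the lipase LIPA (-0.25 (SE 0.06, adjusted p = 0.0117)). GAA, lower here, was higher in DLD1 and RKO.

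In HT55, edgeR called 0 of all genes (0%). An unadjusted p below 0.05 was found for 5 of the 39, as for 1005 of all 13391 genes, and DESeq2 called 0 of the 39 and 0.276% of all genes. With the replicate as a block, as same-numbered HT55 samples deviated alike from their group means, edgeR again called 0 (7 of the 39 at an unadjusted p below 0.05). Without replicate 2 of both populations 7 of the 39 were called, beside 6.13% of all genes. Without HT55 non-LRC replicate 2 alone, and without the block, 5 genes were higher (all genes 2.88% higher and 1.04% lower). They were the aminopeptidase CTSH (0.76 (SE 0.11, adjusted p = 0.0028)), GABARAPL1 (0.61 (SE 0.09, adjusted p = 0.00268)), CTSB (0.46 (SE 0.09, adjusted p = 0.0155)), GAA (0.39 (SE 0.10, adjusted p = 0.0443)) and TFEB (0.44 (SE 0.11, adjusted p = 0.0474)). In SW948, edgeR also called 0 of all genes (0%). An unadjusted p below 0.05 was found for 13 of the 39, as for 2350 of all 13674 genes, and DESeq2 called 6 of the 39 and 1.78% of all genes. Without SW948 LRC replicate 4, 13 were higher (all genes 9.32% higher and 5.15% lower), led by GABARAPL1 (0.89 (SE 0.09, adjusted p = 4.36e-05)), MAP1LC3B (0.80 (SE 0.08, adjusted p = 4.93e-05)), SQSTM1 (0.74 (SE 0.08, adjusted p = 7.54e-05)) and ATP6V1B2 (0.56 (SE 0.07, adjusted p = 0.000151)), with 4 pump subunits among them (ATP6V0D1, ATP6V1B2, ATP6V1C1 and ATP6V1H). MITF then was at 2.15 (SE 0.32, adjusted p = 0.000699). These libraries and SW48 non-LRC replicate 2 had been left out because each resembled a library of the other population. In HT55 and SW48, LRC replicate 2 resembled non-LRC replicate 2 in the same way and was kept. Such a choice can by itself widen the difference between the groups. The values without the left-out libraries, here and across the lines, are therefore given as a description. The median log2 fold change of 12 proliferation genes was 0.05 in HT55, -0.08 in SW948, 0.10 in HCT15 and -0.40 in SW48 with all samples. In each of these lines 0 of the 12 were called.

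**Figure D4:**
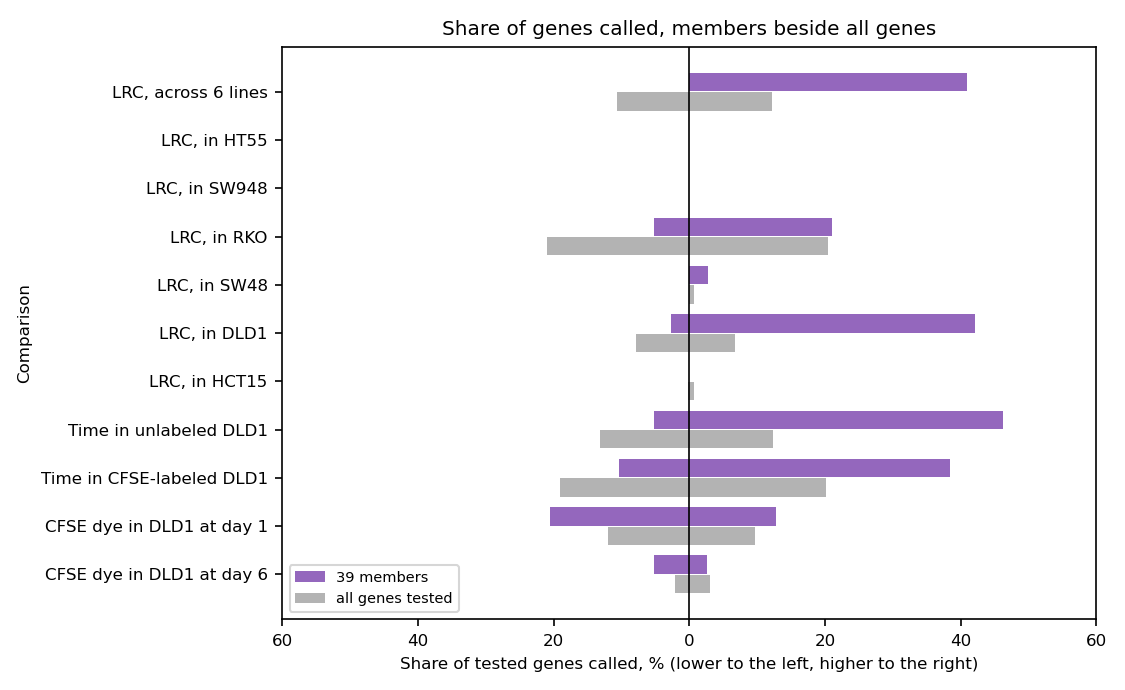
Share of tested genes called at an adjusted p below 0.05 in each comparison, in percent, for the 39 genes (purple) beside all genes tested (grey), with genes higher in LRCs, at day 6 or with CFSE to the right and lower genes to the left. The 39 genes reach 41% on the right across the 6 lines and 42.1% in DLD1, and 21.1% beside 20.4% of all genes in RKO.

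Whether the LRC effect differed between lines was tested with an interaction of line and population. It did for 8 of the 39 genes (20.5%), where it did for 14.3% of all genes. MITF differed most (adjusted p = 0.000118), with changes from -0.12 in HT55 to 1.91 in SW948. ASAH1 (adjusted p = 0.0014) had its largest change in RKO, and the change of ATP6V1A (adjusted p = 0.00583) ranged from -0.16 in DLD1 to 0.40 in SW48. GAA (adjusted p = 0.00911) ranged from -0.48 in HCT15 to 0.49 in RKO, GUSB (adjusted p = 0.00857) from -0.44 in RKO to 0.15 in HT55, and ATP6V1C1 (adjusted p = 0.0121) from -0.29 in RKO to 0.36 in SW948. The LRC changes of SQSTM1 (adjusted p = 0.046) and MAP1LC3B (adjusted p = 0.044) were larger in SW948, DLD1 and HCT15 than in HT55 and RKO. PSAP and GABARAPL1 were not called for such a difference (adjusted p = 0.241 and 0.0871). With the replicate block 20 genes differed (all genes 33.6%), and without replicate 1 only 1 did (all genes 3.2%). There were 19 (all genes 27.5%) without HT55 and SW48 non-LRC replicate 2 and SW948 LRC replicate 4.

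The controls labelled DLD1 were compared between day 6 and day 1 to show the effect of time in culture, apart from sorting. Without dye, 18 of the 39 genes were higher at day 6 and 2 were lower, where 12.4% of all genes were higher and 13.1% lower. With CFSE, 15 were higher and 4 lower, where 20.2% of all genes were higher and 19.1% lower. By role, 8 of 14 hydrolases and activators and 3 of 5 membrane and cholesterol proteins were higher without dye, and 7 and 3 were with CFSE, where CTSL was lower. The pump had 3 and 2 of 6 subunits higher, and with all controls kept no factor rose in either. MCOLN1 fell in both. The median log2 fold change of the 39 was 0.35 without and 0.24 with dye, beside 0.04 and 0.02 over all genes. Both comparisons came from 1 fit of the 4 control groups, so they share the estimate of the spread. Without the library labelled unlabeled day 1 replicate 4, the counts were 20 higher and 3 lower without dye (all genes 19.2% and 22.9%) and 17 higher and 4 lower with dye (all genes 21.5% and 22.2%). Leaving out replicate 1, 2 or 3 of every group instead, which kept this library, edgeR called none of the 39 and 0% of all genes without dye, and 12 to 18 of the 39 had an unadjusted p below 0.05. Without CFSE day 1 replicates 1 and 2, the counts with dye were 5 higher and 3 lower (all genes 7.65% and 12%). Reads outside genes made up 12.2% to 14.8% of reads at day 1 and 5.2% to 7.31% at day 6 with dye, and 8.96% to 13.6% and 5.19% to 8.35% without, and of 12 proliferation genes 5 fell without dye and 6 rose with dye; their part in these results was not tested.

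CTSD, one of the printed promoters, had the largest change with time among the genes called with all 16 controls. With CFSE it was at 122, 146, 170 and 158 CPM on day 1 and 275, 285, 312 and 383 CPM on day 6. Without dye it was at 221, 245, 239 and 438 CPM on day 1 and 385, 426, 524 and 523 CPM on day 6. The CFSE groups were far apart (1.04 (SE 0.20, adjusted p = 0.00103)), and the unlabeled groups were apart except for day 1 replicate 4 (0.70 (SE 0.19, adjusted p = 0.0197); without that library 0.91 (SE 0.15, adjusted p = 0.000237)). PSAP was at 397, 428, 466 and 970 CPM on day 1 and 1153, 1058, 1120 and 1043 CPM on day 6 without dye. With CFSE it was at 521, 582, 482 and 454 CPM and 825, 866, 805 and 897 CPM. Every day 6 sample was above every day 1 sample, although unlabeled day 1 replicate 4 came close. The changes were 0.95 (SE 0.21, adjusted p = 0.009) without dye, 1.27 (SE 0.11, adjusted p = 3.71e-06) without that library, and 0.69 (SE 0.21, adjusted p = 0.0166) with CFSE.

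ASAH1 rose from 103 ± 43.1 to 171 ± 22.2 CPM without dye (0.73 (SE 0.22, adjusted p = 0.0245)) and from 58.6 ± 13 to 111 ± 14 CPM with CFSE (0.89 (SE 0.22, adjusted p = 0.00485)). Its unlabeled day 1 samples were at 74.7, 76.5, 93.3 and 166 CPM, and replicate 4 alone overlapped with day 6. CTSH rose from 59.3 ± 13.9 to 98.3 ± 9.51 CPM without dye (0.72 (SE 0.14, adjusted p = 0.00564)) and from 41 ± 4.3 to 74.4 ± 1.19 CPM with CFSE (0.82 (SE 0.14, adjusted p = 0.000456)), with no overlap in either. NPC2 rose from 135 ± 22.6 to 194 ± 4.93 CPM without dye (0.52 (SE 0.11, adjusted p = 0.00734)) and from 106 ± 4.24 to 188 ± 10.3 CPM with CFSE (0.79 (SE 0.11, adjusted p = 0.000118)), also with no overlap. Of the autophagosome proteins, GABARAP rose in both, by 0.77 (adjusted p = 0.00783) and 0.71 (adjusted p = 0.00327), and GABARAPL2 rose without dye (0.54, adjusted p = 0.0224). Without CFSE day 1 replicates 1 and 2, the time changes with CFSE of PSAP (0.77 (SE 0.27, adjusted p = 0.0578)), ASAH1 (0.59 (SE 0.26, adjusted p = 0.123)) and GABARAP (0.44 (SE 0.18, adjusted p = 0.106)) kept their direction and no longer passed the test.

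MCOLN1 went the other way. With CFSE it was at 31.4, 33.3, 25.9 and 26 CPM on day 1 and 16.8, 14.2, 14.5 and 13.4 CPM on day 6. Without dye it was at 18.9, 22.6, 14.6 and 13 CPM on day 1 and 9.97, 12.3, 13.6 and 13.5 CPM on day 6. All day 6 samples were below all day 1 samples with CFSE (-1.03 (SE 0.17, adjusted p = 0.000436)). Without dye the groups overlapped through day 1 replicate 4 alone (-0.48 (SE 0.17, adjusted p = 0.0476)), and MCOLN1 was still called lower without that library. TFE3 fell without dye, from 87.9 ± 15.2 to 66.4 ± 10.3 CPM (-0.41 (SE 0.14, adjusted p = 0.0457)), and with CFSE was at 95.8 ± 11.7 and 86.1 ± 6.67 CPM (-0.19 (SE 0.14, adjusted p = 0.291)). TFEB was low, at 3.08 ± 0.323 and 3.38 ± 0.941 CPM without dye and 3.39 ± 0.966 and 3.75 ± 1.33 CPM with it, and MITF was at 5.56 ± 1.2, 7.12 ± 0.69, 5.9 ± 1.01 and 6.75 ± 0.532 CPM in the same order. With all controls kept, neither was called with time (adjusted p from 0.144 to 0.799). Without the library labelled unlabeled day 1 replicate 4, MITF was called higher at day 6 without dye. The remaining unlabeled day 1 samples were at 4.86 to 5.09 CPM of MITF. SQSTM1 fell with CFSE, from 719, 813, 1162 and 1131 CPM to 648, 658, 601 and 664 CPM, and the day 6 samples were all below the day 1 samples (-0.61 (SE 0.16, adjusted p = 0.0071)). Of genes called across the lines, GABARAPL1 and MAP1LC3B were not called with time (adjusted p = 0.206 and 0.598 without dye, 0.77 and 0.0957 with it).

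**Figure D5:**
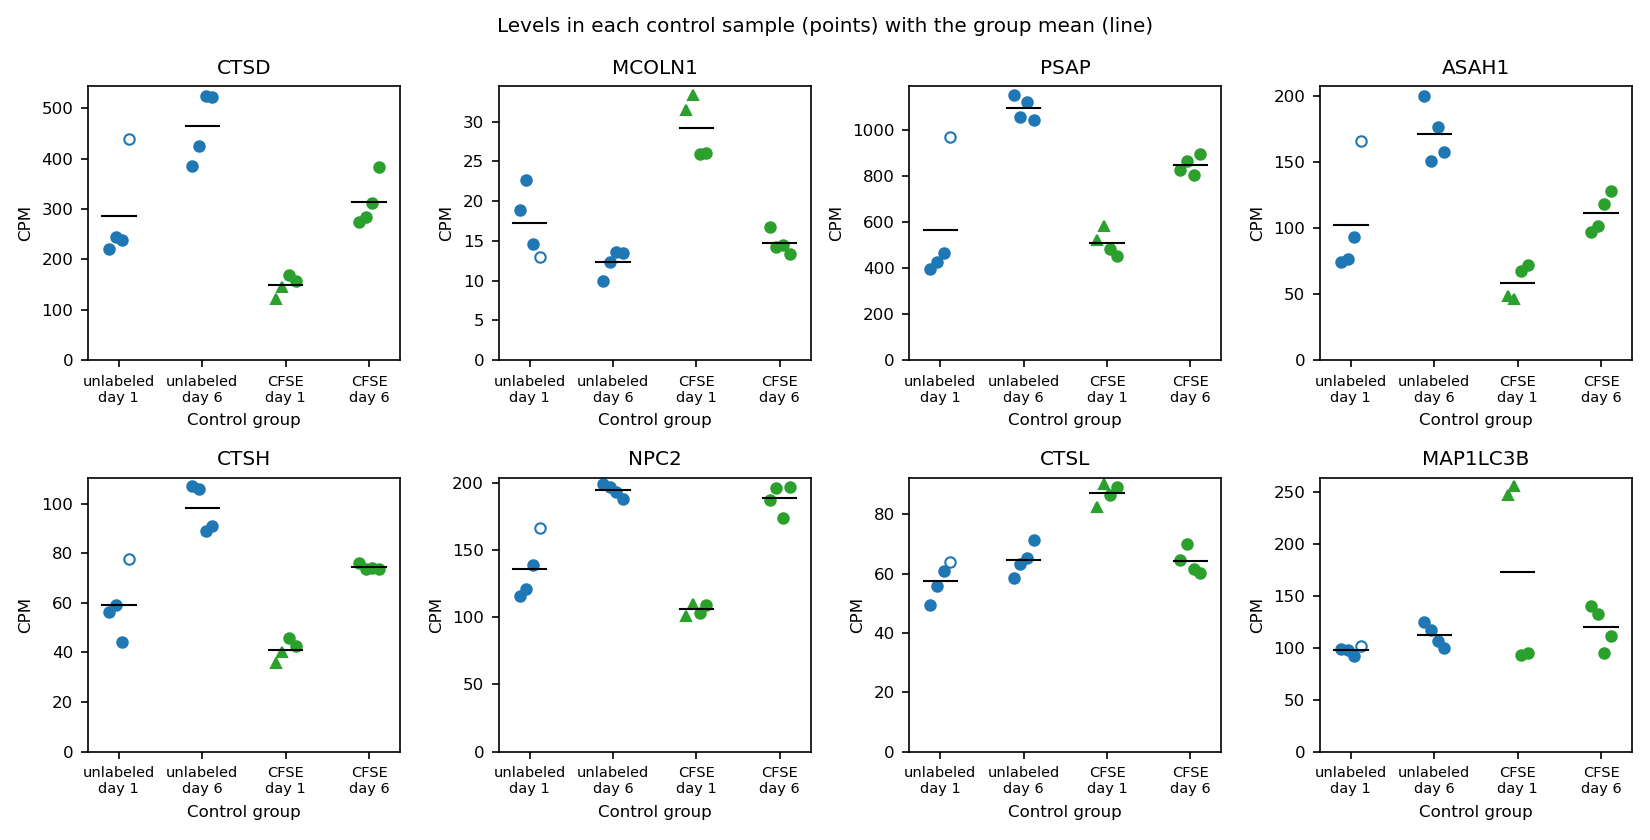
Levels of 8 genes in CPM (axis from 0) in each of the 16 controls labelled DLD1 (points) with the mean of the 4 samples of a group (line), unlabeled in blue and CFSE in green. The open circle is the library labelled unlabeled day 1 replicate 4, which lies near the day 6 samples for CTSD, PSAP and ASAH1, and the triangles are CFSE day 1 replicates 1 and 2, which lie above the other MAP1LC3B samples.

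In the wider list, the smallest p of the genes that rose with time without dye were those of the galactosidase GLB1 (246 ± 6.26 against 136 ± 52.6 CPM, log2 fold change 0.85 (SE 0.18, adjusted p = 0.00794)) and the pump subunits ATP6V1E1 (132 ± 5.02 against 95.6 ± 12.4 CPM, log2 fold change 0.46 (SE 0.10, adjusted p = 0.00898)) and ATP6V0E1 (128 ± 24.7 against 75.7 ± 21.3 CPM, log2 fold change 0.75 (SE 0.17, adjusted p = 0.00898)). With CFSE they included those of the sorting receptor SORT1 (232 ± 15.7 against 98.8 ± 26.2 CPM, log2 fold change 1.20 (SE 0.19, adjusted p = 0.000343)) and GLB1 (195 ± 14.7 against 93 ± 13.4 CPM, log2 fold change 1.03 (SE 0.18, adjusted p = 0.000698)). Lowest were the autophagy protein WDR45 (18.4 ± 0.639 against 35.1 ± 0.713 CPM, log2 fold change -0.97 (SE 0.11, adjusted p = 5.63e-05) with CFSE and 19.4 ± 1.39 against 29.5 ± 4.63 CPM, log2 fold change -0.61 (SE 0.11, adjusted p = 0.00564) without dye), ATG2A, a lipid transfer protein (55.7 ± 7.14 against 93.1 ± 1.08 CPM, log2 fold change -0.78 (SE 0.14, adjusted p = 0.000716)), FLCN, a regulator of mTORC1 and TFEB (33.7 ± 7.36 against 63.7 ± 5.08 CPM, log2 fold change -0.96 (SE 0.19, adjusted p = 0.00124)), and without dye TECPR1 (18 ± 6.32 against 28.9 ± 4.05 CPM, log2 fold change -0.68 (SE 0.23, adjusted p = 0.0405)). The pump subunit ATP6V1C2 had the next smallest p among the lower genes without dye and did not pass the test (19.9 ± 2.56 against 34.1 ± 12.6 CPM, log2 fold change -0.78 (SE 0.30, adjusted p = 0.0659)). In all, 32 genes of 126 rose and 2 fell without dye, beside 12.4% and 13.1% of all genes, and 41 rose and 10 fell with CFSE, beside 20.2% and 19.1%.

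The same controls were compared between CFSE and no dye to show the effect of the dye, so that these comparisons share samples with those of time. At day 1, 5 of the 39 genes were higher with CFSE (all genes 9.73%) and 8 were lower (all genes 12%). Those higher were CTSL, MCOLN1, ATP6V1B2, SQSTM1 and MAP1LC3B, and those lower were the hydrolases CTSD, CTSH, GAA, LIPA and ASAH1 as well as NPC2, GABARAP and WIPI1. CTSL was at 82.5, 90.3, 86.6 and 89.1 CPM with CFSE and 49.4, 55.7, 60.8 and 63.9 CPM without at day 1, with no overlap (0.63 (SE 0.10, adjusted p = 0.00115)). MAP1LC3B was at 247, 256, 93.3 and 95.1 CPM with CFSE and 98.9, 97.5, 92 and 102 CPM without, so that only CFSE replicates 1 and 2 were high (0.86 (SE 0.27, adjusted p = 0.0312)), and without them it was at -0.03 (SE 0.13, adjusted p = 0.942). SQSTM1 was at 719, 813, 1162 and 1131 CPM with CFSE, here with replicates 3 and 4 the highest, and 574, 598, 793 and 596 CPM without (0.60 (SE 0.16, adjusted p = 0.0145)). GAA was at 78.2, 81.8, 91.3 and 89.9 CPM with CFSE and 131, 142, 124 and 194 CPM without, again with no overlap (-0.77 (SE 0.12, adjusted p = 0.00142)). Leaving out CFSE day 1 replicates 1 and 2, 2 genes were higher (CTSL and SQSTM1; all genes 0.369%) and 1 lower (GAA; all genes 0.996%). Leaving out the library labelled unlabeled day 1 replicate 4, 5 were higher (all genes 7.39%) and 4 lower (all genes 10.6%).

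At day 6, when the sorted cells were taken, 1 gene was higher with CFSE (all genes 3.11%) and 2 were lower (all genes 2.03%). The galactosidase GLA was at 74.6, 85, 50.1 and 47.5 CPM with CFSE and 34, 47.3, 32.4 and 29.5 CPM without, with replicates 1 and 2 of the CFSE group far above the others (0.83 (SE 0.23, adjusted p = 0.042)). GAA was at 147, 148, 148 and 162 CPM with CFSE and 190, 215, 215 and 226 CPM without, with no overlap (-0.49 (SE 0.12, adjusted p = 0.0324)). GABARAP was at 141, 136, 148 and 176 CPM with CFSE and 277, 221, 201 and 197 CPM without, also with no overlap (-0.58 (SE 0.16, adjusted p = 0.0482)). Without the library labelled unlabeled day 1 replicate 4, which entered through the shared spread, 8 genes were lower (CTSD, CTSH, HEXA, GAA, PSAP, ASAH1, ATP6AP1 and GABARAP; all genes 6.22%) and GLA was still the 1 gene higher (all genes 7.09%). At day 6, 11 of 12 proliferation genes were higher with CFSE, with a median log2 fold change of 0.77, and its bearing on the 39 genes was not tested.

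The effect of time differed between CFSE and unlabeled controls for 1 of the 39 genes, CTSL, where 0.999% of all genes differed. CTSL was at 58.6, 63.1, 65.1 and 71.3 CPM on day 6 without dye and 64.6, 70.1, 61.4 and 60.2 CPM with CFSE, so that it fell with time with CFSE (-0.48 (SE 0.10, adjusted p = 0.00176)) and was at 0.17 (SE 0.10, adjusted p = 0.218) without, a difference of -0.65 (SE 0.14, adjusted p = 0.0408). Without CFSE day 1 replicates 1 and 2, this difference had nearly the same size and did not pass the test (-0.68 (SE 0.15, adjusted p = 0.135)). Without the library labelled unlabeled day 1 replicate 4, PSAP was called as well (-0.60 (SE 0.14, adjusted p = 0.0232)).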

How the data were processed

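RNA was sequenced as 50-base single-end TruSeq libraries on the HiSeq system. Per sample, the authors deposited a table of read counts, whole and not normalized, 1 row per gene, with summary lines in the form HTSeq writes; the submitters' processing notes name TopHat, HTSeq, DESeq and hg19 (GRCh37) without versions. The annotation and the strand setting are not given in the sources used here, so reads of overlapping and antisense genes cannot be told apart. Symbols were found for 39260 of 54127 genes (72.5%) and positions and exon lengths were taken from GENCODE release 44 on GRCh37.

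Samples were grouped by the titles and characteristics in the labels. A gene entered a test where 4 or more of the samples compared held 10 or more counts, and all such genes were tested together in R 4.3.3 with edgeR 4.0.16 (TMM, two-sided quasi-likelihood test, Benjamini-Hochberg adjustment, threshold 0.05). Across the lines, line was a covariate; each line was also fitted alone; the 4 control groups were fitted together. CPM used TMM library sizes, and a CPM SD is over 4 samples unless stated. Summary lines that name no gene were left out of library sizes; reads outside genes were 5.19% to 14.8% and ambiguous reads 1.52% to 2.21%. The test was tried on simulated data in which 200 genes were changed. Alternatives were DESeq2 1.42.0, its size factors in edgeR, no filter, replicates or lines left out, a replicate block, and other sets of samples; those that leave out single libraries standing apart were chosen after seeing the data.

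The members and lists were chosen with earlier results of these data known. Genes described in full were those with the 8 smallest p across the lines, the 6 largest changes called with time, the 3 largest called in a line, and the 3 factors; in the wider list, the 3 smallest p in each direction, of which 1 is not reported here. CTSL, SQSTM1, MAP1LC3B, GAA, GABARAP and GLA in the controls, and members named under alternatives, were added after their values were seen. Whether equal replicate numbers pair samples was checked by the correlation of their deviations from the group means. All 4 same-numbered values passed 0.1 in DLD1 (0.333 to 0.589), HCT15 (0.395 to 0.658), HT55 (0.192 to 0.467), SW48 (0.232 to 0.666) and between the days with CFSE (0.207 to 0.343). Unlike numbers within replicates 1 and 2 and within 3 and 4 correlated too. Their values were 0.284 to 0.438 in DLD1, 0.436 to 0.679 in HCT15 and 0.155 to 0.386 with CFSE. A block by number there need not be a pairing. HT55 LRC replicate 1 and SW48 LRC replicate 4 correlated slightly more with non-LRC replicates 4 and 1 (0.235 and 0.267).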

Additional observations from a re-analysis of the deposited data

Results flagged for a closer look

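Of 215 combinations of a named gene and a group of 4 samples, 10 had a sample that stood apart, in that its gap to the nearest sample took up more of the range of the group than Dixon's critical value allows; chance flags about 1 in 20 groups. GABARAPL1 had 3 of these: HT55 non-LRC replicate 2 was high (82.8 CPM beside 57.3 to 58.6, gap 0.941 of the range), SW948 LRC replicate 4 was low (19.7 beside 33.3 to 37, 0.832) and the library labelled unlabeled day 1 replicate 4 was high (93.9 beside 64 to 68, 0.841). That last library was also high for CTSD (438 beside 221 to 245, 0.854) and MITF (7.36 beside 4.86 to 5.09, 0.89). CTSB was high in RKO LRC replicate 1 (272 beside 219 to 227, 0.837) and ASAH1 low in SW48 non-LRC replicate 2 (86.6 beside 111 to 113, 0.924). CTSH was high in CFSE day 6 replicate 1 (76.2 beside 73.7 to 73.9, 0.924), where the range itself was narrow. MITF was low in SW48 non-LRC replicate 1 (2.33 beside 3.89 to 4.12, 0.891) and in HCT15 LRC replicate 1 (8.13 beside 9.04 to 9.08, 0.964).

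The LRC effect differed between lines, by edgeR's test of the interaction, for MITF (adjusted p = 0.000118), ASAH1 (0.0014), ATP6V1A (0.00583), GUSB (0.00857), GAA (0.00911), ATP6V1C1 (0.0121), MAP1LC3B (0.044) and SQSTM1 (0.046). The effect of time differed between CFSE and unlabeled controls for CTSL (adjusted p = 0.0408).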

How the results depend on the processing

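The values below are counts of the 39 genes called, with the share of all genes called in brackets. Leaving out each replicate in turn gave 9 to 17 across the lines (13.7% to 18%). By line it gave 0 to 7 in HT55 (0% to 6.13%), 0 to 10 in SW948 (0% to 7.02%) and 0 to 5 in SW48 (0% to 3.84%). It gave 0 in HCT15 (0% to 0.196%), 9 to 12 in RKO (27.3% to 37.6%) and 6 to 15 in DLD1 (4.35% to 11.4%). Differences between lines had 1 to 10 (3.2% to 17.4%). Time had 0 to 25 without dye (0% to 44.8%) and 10 to 21 with CFSE (20% to 40%). The dye had 3 to 11 at day 1 (2.36% to 23.8%) and 0 to 9 at day 6 (0% to 11.3%), and time by dye 0 to 3 (0% to 7.5%). Leaving out a line gave 12 to 19 across the lines (14.6% to 25%), GUSB being lower without HT55. DESeq2 gave 6 in SW948 (1.78%), 2 in SW48 (2.74%), 2 in HCT15 (3.79%), 13 between lines (20.5%) and 7 for the dye at day 6 (10.5%). Without a filter there were 12 in SW948 (3.6%), 0 in SW48 (1.07%), 1 in HCT15 (1.26%) and 0 for time by dye (1.48%). All 48 samples in 1 fit gave 7 in SW948 (2.34%), 3 in SW48 (2.93%), 2 in DLD1 (3.89%) and 3 in HCT15 (4.2%). The 2 groups alone gave 2 for time without dye (5.36%), 6 for the dye at day 1 (10.8%) and 8 for the dye at day 6 (11.3%). Without the sorted libraries left out above there were 5 in HT55 (3.92%), 13 in SW948 (14.5%), 0 in SW48 (1.39%) and 19 between lines (27.5%). Without CFSE day 1 replicates 1 and 2, time had 19 without dye (27.9%) and 8 with CFSE (19.6%). The dye then had 3 at day 1 (1.36%) and 3 at day 6 (6.73%), and time by dye 0 (0.0905%). Without the library labelled unlabeled day 1 replicate 4, time had 23 without dye (42.1%) and 21 with CFSE (43.7%). The dye then had 9 at day 1 (18%) and 9 at day 6 (13.3%), and time by dye 2 (6.09%).

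With a replicate block there were 6 in SW48 (9.69%) and 13 in HCT15 (21.3%). In the other sets whose same-numbered values all passed 0.1, the block moved no count by over 1.5 times, with 23 in DLD1 (33.8%) and 20 for time with CFSE (42.3%). Where same-numbered values did not all pass 0.1, the replicate block gave 7 in SW948 (3.66%), 10 in RKO (37.2%), 17 across the lines (25.5%) and 20 between lines (33.6%). For time without dye it gave 20 (30%), for the dye 15 at day 1 (26.2%) and 5 at day 6 (10.4%), and for time by dye 2 (1.47%). Same-numbered correlations were -0.0683 to 0.0157 in RKO and -0.0499 to 0.248 in SW948. Of 427 values of named genes under alternatives, 374 kept their direction and side of the threshold, 46 lost their call, 7 gained one and 0 reversed; the causes were not tested. Counting error limits MITF, CTSS and TFEB most.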
